A study of Mus musculus with 3 samples.

Results

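The 10 genes described here belong to the integrated stress response and the unfolded protein response, and were followed in skeletal muscle in which Foxo1 had been targeted. They are the transcription factor genes Atf4, Atf5, Ddit3 and Xbp1, the pseudokinase gene Trib3, the amino acid synthesis genes Asns, Psat1 and Phgdh, the glutathione-degrading enzyme gene Chac1, and Herpud1, which serves the removal of misfolded proteins from the endoplasmic reticulum. They were chosen by name as 10 of the 32395 genes or unnamed accessions on the array, and their 13 probes were found through the accession that each probe carries. Of the 13 probes 12 were kept after the filter on dim probes, and all 10 genes were among the 17460 tested.

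The mFoxO1KO mice were male C57BL/6 animals with an inducible deletion of Foxo1 restricted to skeletal muscle, and the control mice were male C57BL/6 animals without a named treatment. Both genotypes ate the AIN93G diet with 0.625 g/kg doxycycline between 8 and 14 weeks of age, so the drug was shared by all samples. RNA of lower-limb muscle of 3 mFoxO1KO and 3 control mice was hybridised as 3 pairs to 3 Agilent arrays of 2 colours, with mFoxO1KO RNA in Cy5 and control RNA in Cy3 throughout. The dyes were never exchanged between the genotypes, so an effect of the dye on a probe cannot be told apart from genotype. The promoter or recombinase that drives the deletion is not given in the sources used here. The tissue is whole muscle, and in such samples a change in the share of a cell type cannot be told apart from a change in RNA per cell.

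As background, kinases that sense misfolded protein, amino acid shortage or other stress phosphorylate the translation factor eIF2, which lowers protein synthesis in general while favouring translation of Atf4 mRNA. The ATF4 protein pairs with C/EBP proteins at a composite DNA element and switches on genes for amino acid synthesis and transport, together with the factors CHOP (encoded by Ddit3) and ATF5 and the feedback regulator TRIB3. In the endoplasmic reticulum a separate sensor, IRE1, splices Xbp1 mRNA, and the factor made from the spliced form induces chaperone and degradation genes. In muscle the ATF4 arm is known for its activation by fasting, immobilisation and mitochondrial stress.

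Of the 10 genes, 4 held the C/EBP-ATF response element in the RefSeq promoter window of the GRCm38.p6 assembly, which spans 250 bases before and 50 bases after the transcription start. The search was for TGATGNAA on either strand, which 4.51% of 27025 genes hold in such a window (3.97% of 32851 windows). The 3 stretches shown here are those in which the match lies upstream of the start, with the match in capitals and up to 30 flanking bases on each side, because their genes gave 3 different readings on the arrays. Asns lies on chromosome 6, and its stretch is chr6:7693210-7693262 on the minus strand, with the match 16 to 23 bases upstream of the start. Chac1 lies on chromosome 2, and its stretch is chr2:119351019-119351086 on the plus strand, with the match 186 to 193 bases upstream. Herpud1 lies on chromosome 8, and its stretch is chr8:94386287-94386354 on the plus strand, with the match 105 to 112 bases upstream. In Chac1 and Herpud1 the element runs on the strand opposite to the gene.
Asns: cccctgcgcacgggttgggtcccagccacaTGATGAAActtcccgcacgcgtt
Chac1: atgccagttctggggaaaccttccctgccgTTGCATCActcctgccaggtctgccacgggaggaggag
Herpud1: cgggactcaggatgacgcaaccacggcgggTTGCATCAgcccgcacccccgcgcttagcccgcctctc

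Trib3, also on chromosome 2, held the element within its transcribed part, between bases 15 and 22 after the start. The cAMP response element TGACGTCA, the unfolded protein response element TGACGTGG, the FoxO element TGTTTAC, and the endoplasmic reticulum stress element (CCAAT and CCACG with 9 bases between them) had no match in the 12 windows of the 10 genes. These were found in 1.79%, 0.676%, 3.65% and 0.119% of all windows. With only the C/EBP-ATF response element matched, no overlap between motifs was possible in these genes. A match is a stretch of letters and not a measured binding site, and the absence of a match says only that these letters are not in this window.

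Foxo1 transcript, the target of the deletion, had normalised intensities (array signal after background, dye and between-array normalisation, in arbitrary units) of 912, 1145 and 994 on arrays 1 to 3 in mFoxO1KO muscle, against 2579, 6141 and 4795 in control muscle. It fell to 0.239 of control, with log2 ratios of -1.50, -2.42 and -2.27 (mean -2.06 ± 0.49, SD, n = 3 arrays, limma adjusted p = 0.0278). Without replicate 2 its adjusted p was 0.106. Its dimmer probe gave -1.39 ± 0.61 and missed the threshold in the limma fit over single probes (adjusted p = 0.0535), and the place of both probes relative to the deleted sequence is not known here. Of the markers of skeletal muscle fibres 10 of 10 were tested, and their summed intensity was 624756 to 662584 in mFoxO1KO muscle and 556869 to 583208 in control muscle. The oxygen-binding protein gene Mb was the 1 fibre marker past the threshold, at 0.57 ± 0.14 (adjusted p = 0.0448, but 0.0572 to 0.178 with any 1 array left out). The median log2 ratio of the fibre markers was -0.0017, 0.12 and 0.27 on the 3 arrays. Some single fibre markers moved more between arrays than this median. Myh2 had -1.69, -0.34 and 1.36, Tnnt1 -0.94, 0.56 and -0.47, and Myh7 -0.80, -0.05 and -0.56, all named after their values were seen. Myh7 was dim, and well above background on 3 mFoxO1KO arrays and 2 control arrays. The median of the adipocyte markers spread further than the fibre median. Of 9 listed, 7 were tested, 7 had means above 0 and 0 passed the threshold, while Lep was not well above background on any array and Ucp1 was so on 2. Their summed intensity was 204182, 100626 and 159583 in mFoxO1KO muscle, against 39572, 92350 and 61575 in control muscle, and their median log2 ratio was 2.93, 0.22 and 1.87 on arrays 1 to 3. Cidea stood at 3.12 ± 1.55, Cidec at 2.00 ± 1.10, Retn at 1.21 ± 0.85 and Adipoq at 1.68 ± 1.37, with adjusted p of 0.0633, 0.0738, 0.103 and 0.128. Among markers of other cells, the macrophage gene Cd14 rose by 0.95 ± 0.31 on the log2 scale (adjusted p = 0.0452), as 1 of 4 macrophage markers tested, and its adjusted p was 0.161 without replicate 2 and 0.0800 without replicate 3. The medians were 0.11 for 4 endothelial, 0.10 for 4 fibroblast, 0.15 for 3 plasma cell and 0.24 for 2 red blood cell markers, none of which passed. Of the plasma cell markers Jchain was well above background on 3 mFoxO1KO arrays and 1 control array. S100a9, the 1 neutrophil marker tested, was well above background on 3 mFoxO1KO arrays and 1 control array, with log2 ratios of 0.89, 2.19 and 0.76 (adjusted p = 0.0874), and the 3 hepatocyte markers were not tested because they were dim.

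In the comparison of genotypes none of the 10 genes passed the threshold, an adjusted p under 0.05 in limma (Benjamini-Hochberg over all genes tested), with 0 higher and 0 lower, beside 2.06% of the 17460 genes tested that were higher in mFoxO1KO muscle and 0.699% that were lower (2.75% in either direction). With single probes in place of genes, 0 of the 12 kept probes passed, beside 2.02% of 21393 probes higher and 0.734% lower (2.75% in all). At an unadjusted p under 0.05 there were 4 higher (Asns, Psat1, Atf4 and Phgdh) and 2 lower (Chac1 and Xbp1) of the 10, a total of 6, where 15.3% of all genes were higher and 11.5% lower (26.8% in either direction). The sample intensities of the 2 genotypes did not overlap for the same 6 genes, and for 14.0% of all genes higher and 11.8% lower. On all 3 arrays 5 of the 10 had ratios above 0 and 2 had ratios below 0, against 27.9% and 24.5% of all genes. The median log2 ratio of the 10 was 0.22, against 0.0064 for all genes tested, with single genes between -1.03 for Chac1 and 1.04 for Asns. All log2 ratios here are of mFoxO1KO over control.

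**Figure D1:**
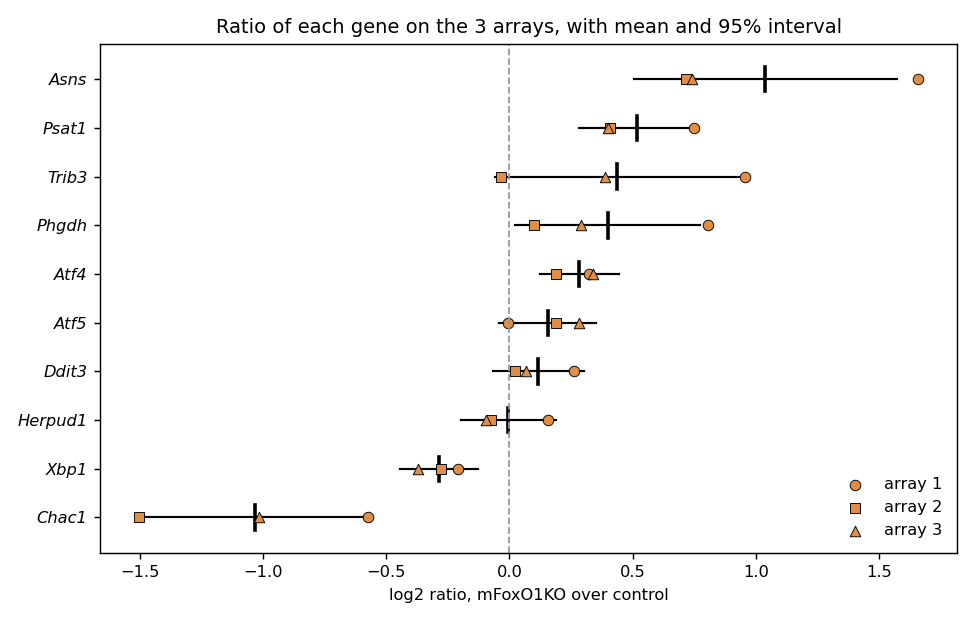
Log2 ratio of mFoxO1KO over control for each of the 10 genes (horizontal axis) on array 1 (circles), array 2 (squares) and array 3 (triangles), with the mean as a vertical bar and its 95% interval from limma as a line. Asns at 1.04 and Chac1 at -1.03 lie at the ends, and the intervals of Atf5, Ddit3, Trib3 and Herpud1 include 0.

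Asns encodes asparagine synthetase, which makes asparagine out of aspartate and glutamine and is a classical ATF4 target. Its intensity was 670, 457 and 413 in mFoxO1KO muscle, against 212, 279 and 247 in control muscle. The 3 mFoxO1KO samples all lay above the 3 control samples, and mFoxO1KO replicate 1 was the highest. The log2 ratios were 1.66, 0.71 and 0.74, and their mean of 1.04 ± 0.54 corresponds to a 2.05-fold higher level (95% interval 1.42 to 2.97, limma adjusted p = 0.0692). Without replicate 1 the ratio was 0.73 and passed the threshold (adjusted p = 0.0291). It did not pass without replicate 2 (0.182) or without replicate 3 (0.0894). Over all alternatives the adjusted p ran between 0.00276 and 0.182.

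Psat1 encodes phosphoserine aminotransferase, the middle step of serine synthesis. Its measured probe gave 306, 224 and 208 in mFoxO1KO muscle, against 183, 169 and 158 in control muscle. The groups did not overlap, and mFoxO1KO replicate 1 again stood above the other samples. The log2 ratios of 0.75, 0.41 and 0.40 averaged 0.52 ± 0.20, or 1.43-fold (95% interval of the log2 ratio 0.28 to 0.75, limma adjusted p = 0.0584). A second Psat1 probe was not well above background in either channel of any array and was not tested. Its dim signals gave a mean log2 ratio of 0.13 ± 0.08.

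Phgdh encodes phosphoglycerate dehydrogenase, which commits carbon to serine synthesis. Its brighter probe gave 360, 270 and 275 in mFoxO1KO muscle, against 206, 252 and 225 in control muscle, which do not overlap. The log2 ratios were 0.80, 0.10 and 0.29, a mean of 0.40 ± 0.36 or 1.32-fold (interval 0.02 to 0.77, limma adjusted p = 0.170). The dimmer probe gave 277, 199 and 229 in mFoxO1KO muscle and 148, 176 and 152 in control muscle, also without overlap. Its log2 ratios were 0.90, 0.18 and 0.59 (mean 0.56 ± 0.36), and the limma fit over single probes gave an adjusted p of 0.0991. Both probes had their highest ratio on array 1 and their lowest on array 2.

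Trib3 encodes a pseudokinase that binds ATF4 and CHOP and dampens their activity. It measured 590, 426 and 509 in mFoxO1KO muscle, against 305, 437 and 389 in control muscle. On array 2 the mFoxO1KO sample was the lower one, so the groups overlap. The log2 ratios of 0.95, -0.04 and 0.39 averaged 0.44 ± 0.50 (interval -0.06 to 0.93, limma adjusted p = 0.224). Without replicate 1 the mean was 0.18 for Trib3 and 0.20 for Phgdh, and without replicate 2 it was 0.67 for Trib3.

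Asns, Psat1, Phgdh and Trib3 all had their highest ratio on array 1, the array on which the median of the 7 adipocyte markers was also highest, at 2.93 against 0.22 on array 2 and 1.87 on array 3. Asns and Psat1 kept ratios of 0.71 and 0.41 on array 2, where that median was lowest, and Phgdh had 0.10 and Trib3 -0.04 there. The part of adipocyte RNA in these 4 results was not tested. Of the 10 genes 8 had their highest ratio on array 1, the exceptions being Atf4 and Atf5. The share of all genes with their highest ratio on array 1 was not counted, so this number is not read as a trait of the 10. The medians of the 10 were 0.29, 0.06 and 0.29 on the 3 arrays, against 0.022, -0.0023 and 0.0077 for all genes tested.

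**Figure D2:**
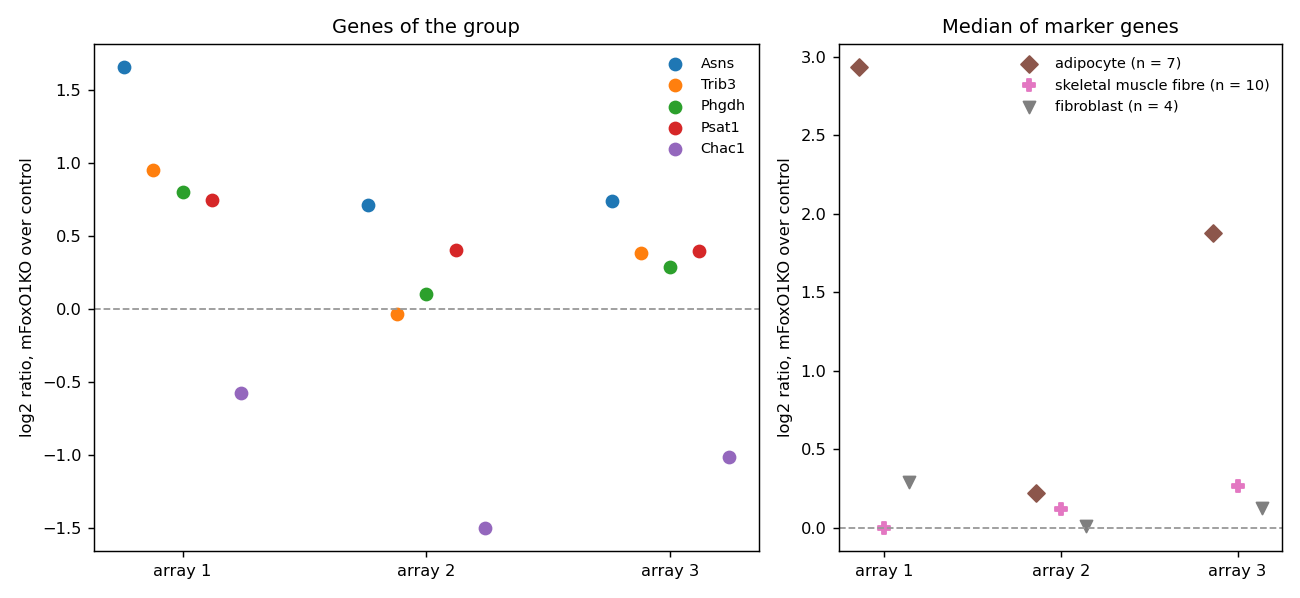
Log2 ratio of mFoxO1KO over control on each array, for Asns, Trib3, Phgdh, Psat1 and Chac1 (left) and as the median of adipocyte, skeletal muscle fibre and fibroblast markers (right). The adipocyte median was 2.93, 0.22 and 1.87, while Asns stayed between 0.71 and 1.66 and Chac1 between -1.50 and -0.57.

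Chac1 encodes a gamma-glutamylcyclotransferase that breaks down glutathione and is induced through ATF4, ATF3 and CHOP. Unlike the amino acid genes it was lower in mFoxO1KO muscle, with intensities of 16841, 14312 and 11314, against 25063, 40524 and 22892 in control muscle. Every mFoxO1KO sample lay below every control sample, and control replicate 2 stood apart as the highest of the 6. The log2 ratios of -0.57, -1.50 and -1.02 averaged -1.03 ± 0.46, that is 0.489 of control (95% interval 0.355 to 0.675, limma adjusted p = 0.0574). Without replicate 1 the ratio was -1.26 and passed the threshold (adjusted p = 0.0362). It did not pass without replicate 2 (0.166) or without replicate 3 (0.107). Over all alternatives the adjusted p ran between 0.0362 and 0.166. The array with the lowest Chac1 ratio, array 2, held control replicate 2 and was also the one with the lowest adipocyte median. The part of adipocyte RNA in the Chac1 result was not tested.

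The distance between these 2 targets of ATF4 was steadier over the arrays than either ratio. Asns minus Chac1 came to 2.23, 2.22 and 1.76 on the log2 scale, a mean of 2.07 ± 0.27 (SD, n = 3 arrays). This difference was picked after the values were seen, so no test is given.

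Atf4 itself was measured by 2 probes that differed. The brighter one read 52156, 51629 and 50402 in mFoxO1KO muscle, against 41646, 45345 and 39833 in control muscle. The groups did not overlap, and no spot of it was marked as saturated. Its log2 ratios of 0.32, 0.19 and 0.34 averaged 0.28 ± 0.08, or 1.22-fold (interval 0.12 to 0.44, limma adjusted p = 0.0802). The Atf4 ratio moved with the processing, to 0.087 with the deposited log ratios, 0.18 with the mean of both probes and 0.65 with median centring, which passed the threshold (adjusted p = 0.0190). The dimmer probe read 948, 911 and 1028 in mFoxO1KO muscle and 918, 904 and 921 in control muscle, which overlap. It gave 0.05, 0.01 and 0.16 (mean 0.07 ± 0.08), and the limma fit over single probes gave an adjusted p of 0.486. The ratio of the brighter probe exceeded that of the dimmer one by 0.28, 0.18 and 0.18 on the 3 arrays. ATF4 output is set largely at translation, and the arrays measure mRNA alone.

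Atf5, a related factor that is also translated preferentially under stress, read 6476, 7392 and 7508 in mFoxO1KO muscle, against 6500, 6491 and 6178 in control muscle. The mFoxO1KO sample was the higher one on arrays 2 and 3 only, and the groups overlap. The ratios of -0.01, 0.19 and 0.28 averaged 0.15 ± 0.15 (interval -0.04 to 0.35, limma adjusted p = 0.265). The Atf5 ratio was 0.23 without replicate 1, 0.091 without replicate 3 and 0.40 with median centring.

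Ddit3, whose product CHOP drives the late, pro-apoptotic phase of the response, read 244, 219 and 244 in mFoxO1KO muscle, against 203, 215 and 233 in control muscle. The ranges overlap, with the largest gap on array 1. The ratios of 0.26, 0.02 and 0.07 averaged 0.12 ± 0.13 (interval -0.07 to 0.30, limma adjusted p = 0.344), so the data leave room for a level up to 1.23-fold higher. Without replicate 1 the Ddit3 ratio was 0.045, and with median centring it was 0.25.

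Xbp1 read 9783, 10536 and 8481 in mFoxO1KO muscle, against 11321, 12777 and 10967 in control muscle. All 3 mFoxO1KO samples were below all 3 control samples. The ratios of -0.21, -0.28 and -0.37 averaged -0.29 ± 0.08, or 0.820 of control (interval of the log2 ratio -0.45 to -0.13, limma adjusted p = 0.0785). With median centring of the arrays in place of loess the Xbp1 ratio was -0.01, beside a median of 0.16 for all genes under that setting. The spliced and unspliced forms of its mRNA were not told apart.

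Herpud1, an endoplasmic reticulum membrane protein gene that responds to both ATF4 and the XBP1 and ATF6 arms, read 14283, 14962 and 12436 in mFoxO1KO muscle, against 12819, 15740 and 13284 in control muscle. The groups overlap throughout. Its ratios of 0.16, -0.07 and -0.10 averaged -0.0041 ± 0.14 (interval -0.20 to 0.19, limma adjusted p = 0.979), and the sign of so small a mean turned under 4 of 16 alternatives. The 3 genes whose upstream sequences are printed above, each with the same element, had mean log2 ratios of 1.04 for Asns, -1.03 for Chac1 and -0.0041 for Herpud1.

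**Figure D3:**
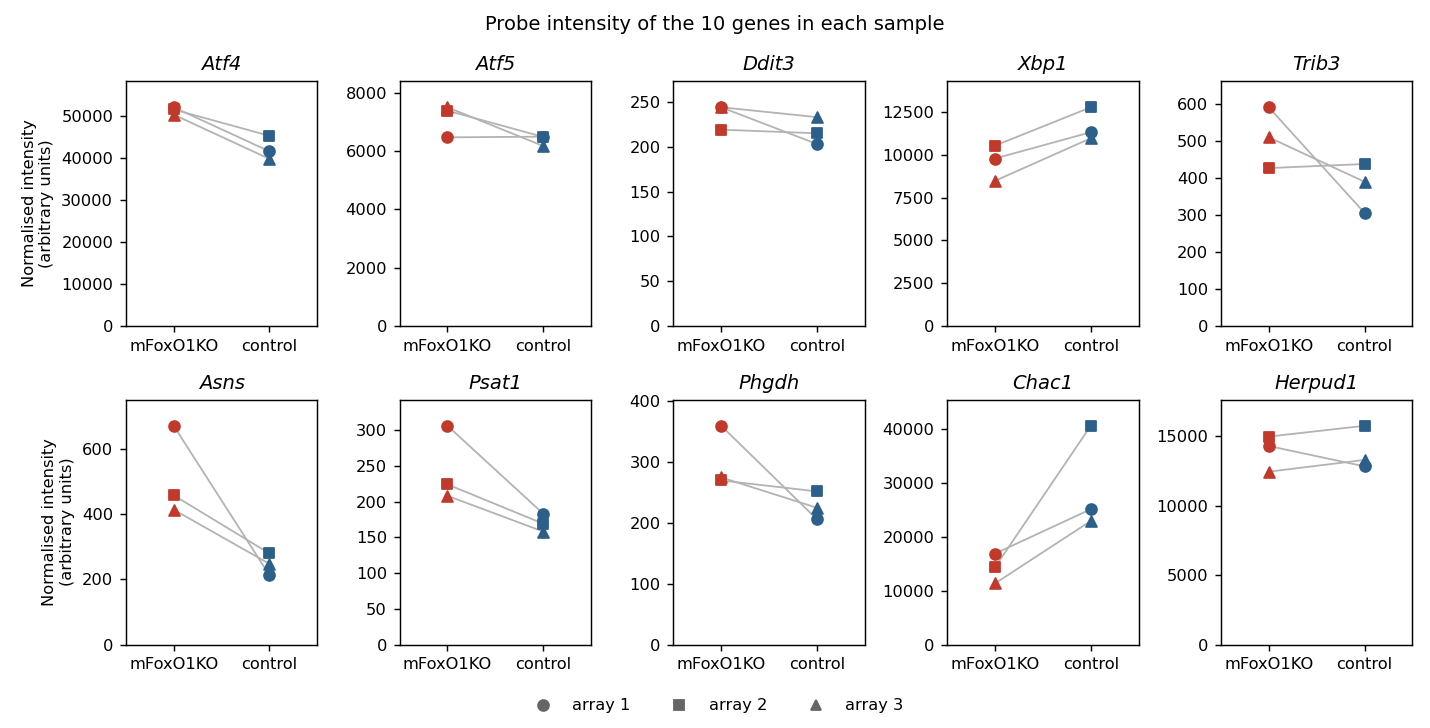
Normalised intensity (arbitrary units) of the probe used for each of the 10 genes, with the 3 mFoxO1KO samples left and the 3 control samples right in each panel and lines joining the samples of 1 array. The groups are apart for Asns, Psat1, Phgdh, Atf4, Xbp1 and Chac1 and overlap for Trib3, Atf5, Ddit3 and Herpud1.

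Around these genes, the rest of the stress pathways were read as lists of genes by role. The counts past the threshold in these lists stand beside 2.06% of all genes tested higher and 0.699% lower. No list was tested as a set. Of 21 genes for stress sensors and the control of eIF2, 0 passed the threshold in either direction, and their median was 0.0082. The genes with the smallest p were Eif2ak4, which encodes the amino acid sensor kinase GCN2, at -0.42 ± 0.12 (adjusted p = 0.0544), Impact, an inhibitor of GCN2, at 0.43 ± 0.20 (0.0758), the sensor gene Atf6 at 0.23 ± 0.09 (0.110), and Eif2s1, the eIF2 alpha subunit, at -0.28 ± 0.16 (0.121). Eif2ak4 measured 553, 523 and 537 in mFoxO1KO muscle, against 760, 752 and 657 in control muscle, without overlap. The sensor genes Eif2ak3 (PERK) and Ern1 (IRE1), named after their values were seen, had ratios of 0.01 and 0.03.

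Of 25 tested among 28 other targets of ATF4 and CHOP, 1 rose and 0 fell, with a median of 0.08. The 1 that rose was Atf3, a stress-induced factor of the ATF and CREB family. It measured 438, 553 and 453 in mFoxO1KO muscle, against 169, 184 and 179 in control muscle. All mFoxO1KO samples were well above all control samples, and the mean log2 ratio was 1.43 ± 0.13, or 2.70-fold (limma adjusted p = 0.00934). Its adjusted p stayed under 0.05 in the 15 alternatives in which it was fitted, at 1.47e-05 to 0.0499. Within the ATF and CREB family, 1 of 18 tested genes (again Atf3) rose and 0 fell, with a median of 0.05. Slc7a5, a transporter of large neutral amino acids, at 0.37 ± 0.08 (adjusted p = 0.0544), and Vldlr, the very low density lipoprotein receptor gene, at -0.60 ± 0.20 (adjusted p = 0.0505), missed the threshold in opposite directions, and both were named after their values were seen. Slc7a11 and Fgf21 were not tested because they were dim, and Pycr1 was not matched to a probe.

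Among 11 other genes of serine and one-carbon metabolism, 0 passed, with a median of 0.06. Slc1a4, a transporter of neutral amino acids including serine, read 3190, 3143 and 3139 in mFoxO1KO muscle, against 1749, 2160 and 2324 in control muscle. The groups did not overlap, and its ratio was 0.61 ± 0.23 (limma adjusted p = 0.0532). The mitochondrial folate enzyme gene Mthfd2 had 0.27 ± 0.01 (adjusted p = 0.0704), the mitochondrial serine hydroxymethyltransferase gene Shmt2 had 0.20 ± 0.02 (0.111), and the folate dehydrogenase gene Aldh1l2 had -0.26 ± 0.21 (0.170). Of 20 genes for cytosolic aminoacyl-tRNA synthetases, many of which ATF4 is known to induce, 0 passed and the median was -0.0013. The 4 with the smallest p all had negative means, at -0.28 ± 0.07 for Dars, -0.32 ± 0.13 for Tars, -0.22 ± 0.16 for Wars and -0.20 ± 0.17 for Lars, with adjusted p of 0.0802 to 0.196.

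Of 15 chaperone and folding enzyme genes of the endoplasmic reticulum that were tested, 0 passed and 0 had an unadjusted p under 0.05, with a median of -0.02. Hspa5, which encodes the main lumenal chaperone BiP and was named after its value was seen, had -0.07 ± 0.07. The smallest p belonged to Hspa13 at -0.14 ± 0.09, P4hb at 0.11 ± 0.06, Pdia3 at -0.18 ± 0.24 and Pdia6 at -0.10 ± 0.10, with adjusted p of 0.218 to 0.393. Among 25 genes for degradation and translocation at the endoplasmic reticulum 2 rose and 0 fell, with a median of -0.0023. Ube2g2, a ubiquitin-conjugating enzyme gene, rose 1.37-fold (0.46 ± 0.11, adjusted p = 0.0492). Derl3, a Derlin family gene, did not stand well above background in control muscle on any array, so it was tested through the mFoxO1KO channel alone and its rise is given as at least 1.30-fold (adjusted p = 0.0485). That bound allows for the dim control signal and not for the spread over arrays. The place of Derl3 among the 2 genes that rose rests on that single-channel filter, and with both channels required above background it was not tested. With any 1 array left out neither passed, at adjusted p of 0.0648 to 0.176 for Ube2g2 and 0.0698 to 0.161 for Derl3. Over all alternatives in which they were fitted, Ube2g2 missed the threshold in 8 of 15 and Derl3 in 7 of 14. With the mean of its probes Ube2g2 stood at 0.38 (limma adjusted p = 0.0531). Of 10 genes of the mitochondrial unfolded protein response 0 passed, with a median of 0.10 and Oma1, a protease of the mitochondrial inner membrane, at 0.21 ± 0.08 (adjusted p = 0.127), Dnaja3 at -0.13 ± 0.04, Trap1 at 0.13 ± 0.08 and Phb2 at 0.11 ± 0.07.

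**Figure D4:**
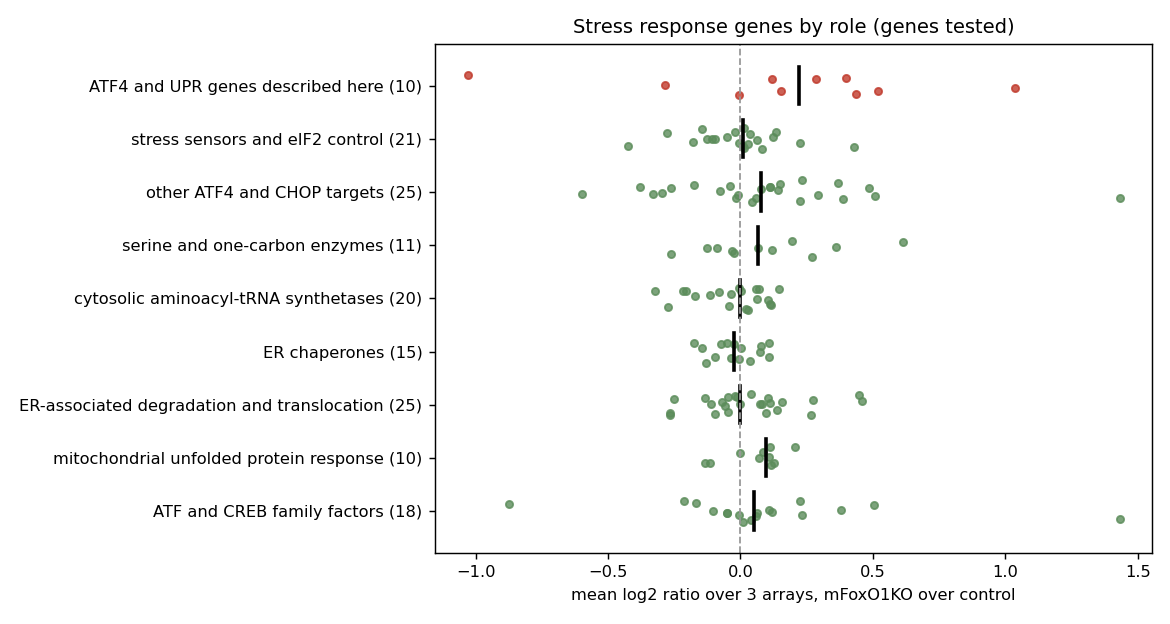
Mean log2 ratio of mFoxO1KO over control (3 arrays) for the 10 genes (red) and for the lists of related genes by role (green), with the median of each as a black bar and the number tested in brackets. The medians of the related lists lie between -0.02 and 0.10. Some genes are in more than a single list. Atf3, at 1.43, is drawn both among the other ATF4 and CHOP targets and in the ATF and CREB family.

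By the smallest Euclidean distance over the 3 log2 ratios, the named genes most like Asns among 12986 were Vnn1 (distance 0.14, mean ratio 0.98), H2-Q10 (0.20, 1.07), Sec14l2 (0.26), Angptl4 (0.29, 0.87) and Aldh9a1 (0.30, 0.91). Vnn1 encodes pantetheinase and Angptl4 a secreted inhibitor of lipoprotein lipase. Sec14l2 was well above background on 3 mFoxO1KO and 0 control arrays, so it entered the fit through the mFoxO1KO channel alone and its level is given as at least 2.102-fold higher. That bound allows for the dim control signal and not for the spread over arrays. Sec14l2 was the 1 of these past the threshold (limma adjusted p = 0.0485), and it did not pass without replicate 2 (0.142) or replicate 3 (0.0681). All 5 had their highest ratio on array 1, as Asns did, which follows from choosing them by closeness to its 3 ratios. The likeness is a description over 3 arrays.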

How the data were processed

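The deposited files are scanner output, 1 per array, with 44397 spots each. Per the file headers they hold median spot and local background intensity values in both channels as scanned, flags per spot, and a log10 ratio of processed Cy5 over Cy3 intensity made by the authors with Agilent Feature Extraction 11.5.1.1, while the submitters' processing notes name version 9.3.2.1. The flag columns, deposited as other values of 0 or 1, mark outlier, saturated and well-above-background spots. The labelling kit for low input received 0.2 µg of RNA per sample, per the labels.

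Background was corrected with normexp (offset 50), which draws ratios of dim probes towards 0, and each array was dye-normalised by loess without control spots (limma 3.58.1, R 4.3.3). Between 281 and 319 outlier spots per array were left out. A probe was kept if well above background in the same channel on all 3 arrays, and the brightest kept probe stood for its gene. Log2 ratios were tested against 0 with an intercept-only limma fit (two-sided), with Benjamini-Hochberg adjustment over 17460 genes. Sample intensities are the channels after loess and Aquantile. Errors after ± are SDs over 3 arrays. The pairing comes from the shared array. Median signals of 99 to 102 in mFoxO1KO channels lay over backgrounds of 50.5 to 52, and of 90.5 to 97 in control channels over 35.5 to 38, and with the 3 arrays limit the precision. Symbols came from a RefSeq table of GRCm38.p6 through the accession, for 27508 of 39429 probes (69.8%). The headers name an older mouse build for the probes, so coordinates are RefSeq's alone. The fit was also run on simulated data with the same spread for every gene and a dye curve set by intensity. Such data hold no spread particular to a gene and no dye effect of a single probe.

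Genes, lists and motifs were chosen with earlier results of these data known. The genes named are the 10, Foxo1, in each list every gene past the threshold (at most 4) or else up to 4 by smallest p, and the 5 most like the gene with the largest ratio. Where others are named, the text says so. Alternatives covered background, dye and between-array normalisation, the deposited log ratio, the dim-probe filter, how probes stand for a gene, the model of the spread, a separate-channel fit and each array left out.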

Additional observations from a re-analysis of the deposited data

How the results depend on the processing

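Over 16 alternatives for each of the 10 genes, 146 of 160 ratios kept direction and side of the threshold and 10 passed it that had not. The other 4 turned sign, all of Herpud1 (0.048 with the deposited log ratios, 0.28 with median centring, 0.030 without replicate 2 and 0.041 without replicate 3). None of the 10 passed with the settings used in the text, so none could lose the threshold. Many of these alternatives could not change a direction. The filters on dim probes, the variance models, the separate-channel fits and the single-probe fit returned the same ratio for each of the 10 genes. So did the mean of probes for genes with a single kept probe. The count of ratios that kept direction therefore overstates how far direction was put to the test. Separate channels with the array as a replicate block also returned the same p-values as the ratio fit, so that setting could not change the side of the threshold either. With an array left out Herpud1 ranged over -0.084 to 0.041, where the lowest value, without replicate 1, kept the negative sign. Median centring in place of loess, under which the median of all genes was 0.16, called 3 of the 10 higher (Atf4 0.65, adjusted p 0.0190, Asns 1.204, 0.00276, and Psat1 0.64, 0.0251) and 1 lower (Chac1 -0.72, 0.0411), and the calls among all genes were 95.8% higher, against 74.6% with loess. Scale normalisation between arrays called 2 higher (Asns and Psat1), and no filter on dim probes called 1 higher (Psat1) and 1 lower (Chac1). Leaving out an array called 0 to 1 higher and 0 to 1 lower. Of all genes, 359 were higher and 122 lower with the settings used in the text, 152 and 34 with a normexp offset of 10, 171 and 41 with the deposited log ratios, 1153 and 51 with median centring, 604 and 231 with scale normalisation, 553 and 193 with no filter, 37 and 18 with probes above background in both channels, and 46 to 298 and 3 to 107 with an array left out. The mean of a gene's probes gave 77 lower and a robust variance model 185. The ratio fit is already paired through the shared array. Separate channels with the array as a replicate block gave 359 and 122 again, and with no replicate block 164 and 52, and neither called any of the 10. The causes were not tested. With the deposited log ratios Atf4 stood at 0.09, Asns at 1.32 and Psat1 at 0.73. Mean in place of median spot signals were not tried, because no such column was used here. With 3 arrays and no dye swap, p-values measure the spread between 3 pairs of mice and cover no dye effect of a probe.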
